A study of Danio rerio with 16 samples.

Results

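The genes described here encode the translation initiation and elongation factors, the proteins that load ribosomes onto messenger RNA and move them along it. Earlier results of these data were known when these genes were chosen. The choice was by name, as the probe sets whose only gene symbol in the platform annotation begins with eif1 to eif6, eef1 or eef2. This gave 80 probe sets for 64 genes, 12 of which had more than 1 probe set, out of 15502 probe sets other than controls. A further 2 probe sets carry a factor symbol beside the symbol of another gene and were left out. RNA abundance was measured in zebrafish embryos on 1-colour Affymetrix arrays, 16 in all, and is given in intensity units, a linear scale on which every array has the same trimmed mean.

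The samples fall into 4 labelled groups. At 36 h, 4 arrays are of wild-type embryos and 6 are labelled foggy, and the material is described as embryonic brain. At the stage of 12 somites, 3 arrays are of embryos injected with a control RNA and 3 of embryos injected with Foggy(DelCter) RNA. Foggy is the zebrafish name for supt5h, whose protein Spt5 is a part of the DSIF complex that regulates elongation by RNA polymerase II. The labels name no foggy allele, do not say what the control RNA encodes, and do not say how many embryos were pooled. Nor do they give separate clutches for the replicates, and the p-values therefore reflect only a spread among samples that may be technical. As source, all samples carry brain together with adrenal medulla, and the descriptions were followed instead.

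Initiation begins when eIF2 brings the initiator tRNA to the small ribosomal subunit, with eIF1A, eIF3 and eIF5 on the subunit. The eIF4 proteins hold the capped end of the messenger RNA, where eIF4E binds the cap, eIF4G is the scaffold, eIF4A unwinds structure and the 4E-BP proteins compete with eIF4G for eIF4E. Elongation uses eEF1A to deliver aminoacyl tRNA, the eEF1B complex to recharge eEF1A with GTP, and eEF2 to move the ribosome by a codon. Vertebrates cut cap-dependent initiation by a pair of routes, phosphorylation of eIF2 alpha by stress kinases and release of the 4E-BP proteins when mTOR is inactive.

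The 36 h arrays split into sets by the number in their titles, and the sets were analysed apart. Array profiles correlated at 0.984 to 0.992 within numbers 1 to 3 (1 wild type and 3 labelled foggy), at 0.957 to 0.992 within numbers 4 to 6 (3 and 3), and at 0.831 to 0.872 between the sets, where the points are probe sets and thus not independent. Arrays labelled foggy had supt5h at 41.9 ± 4.51 units in numbers 4 to 6 (SD, n = 3), against 198 ± 32.5 in wild type 4 to 6 (n = 3). In numbers 1 to 3 the corresponding levels were 252 ± 6.91 (n = 3) and 209.8 (1 array). The foggy label of numbers 1 to 3 is therefore not borne out by this transcript, and those arrays are called "labelled foggy" throughout. Some tissue markers in them did lie below the single wild-type array, the direction seen in numbers 4 to 6, and others did not. On the log2 scale the list medians were -1.68 for skeletal muscle, -1.36 for heart muscle and -1.93 for red blood cells. In numbers 4 to 6 they were -2.24, -3.04 and -1.97. For neurons and neural progenitors the medians were -0.03 and 0.01 in numbers 1 to 3, beside -0.75 and -0.42 in numbers 4 to 6. Background is read by the 17 unused tag control probe sets, which reached 10.8 to 34.4 units. Of the 11 neuronal markers on the array, 1 averaged less than the highest tag control of its group at 36 h, snap25b in foggy 4 to 6. In each 12-somite group 7 of the 11 averaged no more than it. Summed yolk and liver markers were at 584 to 656 units in numbers 1 to 3 and at 35067 to 41063 in numbers 4 to 6. The 4 adrenal and chromaffin cell markers on the array summed to 34.3 to 189 units over all 36 h arrays, and 1 to 4 of them per group lay within the tag controls on every array. The log2 3'/5' ratio of the GAPDH control was 0.83 to 0.95 in numbers 1 to 3, 0.52 to 0.84 in numbers 4 to 6 and 0.42 to 0.89 at 12 somites. In whole-tissue RNA, fewer cells of a type and less RNA per cell cannot be told apart.

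Each of the factor families had at least 1 probe set above the tag controls in numbers 4 to 6 and at 12 somites. Levels are given here for bright probe sets of each family and are not compared between probe sets, whose brightness depends on their own probes. Among initiation factors, eIF1A, which scans for the start codon with eIF1, was read by an eif1axb probe set at 1234 ± 101 units in wild type (numbers 4 to 6) and 1499 ± 95.2 in control embryos at 12 somites (SD, n = 3 each here and in the rest of this paragraph). The eIF2 beta subunit gene eif2s2 measured 1729 ± 252 and 2506 ± 136, and eif2b2, a regulatory subunit of the eIF2B exchange factor, 518 ± 39.7 and 413 ± 17.05. Among the 14 eIF3 genes, eif3ea measured 2903 ± 101 and 3008 ± 169, and eif3ba 2831 ± 129 and 3181 ± 55.01. Of the cap-binding complex, the helicase gene eif4a1a reached 5529 ± 155 at 12 somites and the cofactor gene eif4bb 2658 ± 119.5, while eif4e1c, a cap-binding protein, measured 555 ± 44.7 and 571 ± 38.7. The repressor gene eif4ebp2 measured 1556 ± 257 and 949.7 ± 203, and eif4g2b, which encodes a shortened eIF4G without the eIF4E site, 833 ± 46.04 and 1013 ± 12.98. For the late steps, eif5, the GTPase activator of eIF2, measured 876 ± 79.01 and 1548 ± 157, eif5a2, whose product eases peptide bond formation at difficult stretches, 4119.7 ± 301 and 4372 ± 154, and eif6, which keeps the large subunit apart from the small one, 521 ± 85.3 and 497 ± 12.8. Among elongation factors, eef1a1l1 measured 11087 ± 1055 and 13228 ± 1483, eef1g of the eEF1B complex 6269.7 ± 282 and 5282 ± 466, and eef2b 7241 ± 1409 and 9839 ± 880.3. The tRNA synthetase complex gene eef1e1 measured 463 ± 7.37 and 472 ± 15.6, and eef2k, the kinase that inhibits eEF2, 229 ± 88.3 and 63.6 ± 5.90. The dim ones were 2 of the 3 eif2ak3 probe sets, eif4e1b, eef1a1a, eef1a1b, eef1a1l3 and 1 of the 3 eef2l2 probe sets, none of which passed the filter on low values in numbers 4 to 6.

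Within numbers 4 to 6, where supt5h was low in arrays labelled foggy, most factor transcripts were not called. Of the 73 probe sets tested, 9 passed limma's test at a Benjamini-Hochberg adjusted p under 0.05, 3 higher and 6 lower, which is 12.3% of the probe sets tested. Over all 10851 probe sets tested on the array 19.5% were called in either direction, 9.12% higher and 10.4% lower. The median log2 difference was 0.07 over the factors and 0.06 over all probe sets tested, with an interquartile range of -0.14 to 0.21 over the factors. The calls fell into a few families, with both calls among the eIF4E repressors upward and all 4 calls of eEF1B and eEF2 downward. Those 4 belong to eef1g, eef2a.1 and both tested probe sets of eef2l2. In arrays labelled foggy, eef2a.1 and eef2l2 lay near the highest tag control of the group. The bright eef1a1l1 and eef2b were not called, at -0.07 and -0.11, so no direction of the elongation factors is read from the count. At an unadjusted p under 0.05 there were 21 factor probe sets of the 73, against 34.9% of all probe sets tested.

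**Figure D1:**
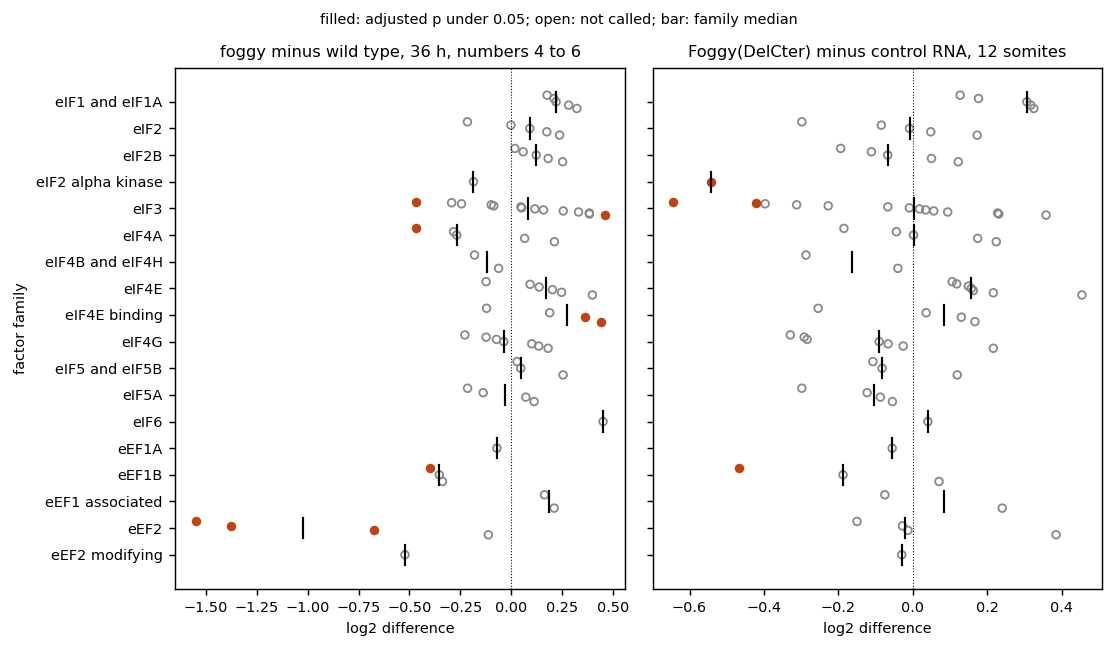
Log2 differences of the factor probe sets that passed the filter, by factor family, for arrays labelled foggy against wild type in numbers 4 to 6 (left) and for Foggy(DelCter) RNA against control RNA at 12 somites (right). Filled points had a limma adjusted p under 0.05, open points did not, and bars are family medians. The 9 calls on the left lie in eIF3, eIF4A, the eIF4E repressors, eEF1B and eEF2, and the 4 calls on the right are all below 0.

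Among the early initiation factors none was called in numbers 4 to 6. The smallest p of the eIF1A probe sets belonged to eif1axb, at 1282, 1302 and 1118 units in wild type 4, 5 and 6 and 1584, 1564 and 1509 in foggy 4, 5 and 6, which is 0.32 ± 0.11 (SE) on the log2 scale with a limma adjusted p = 0.0677. Of the eIF2 subunits, eif2s1a, a copy of the eIF2 alpha gene, measured 366, 355 and 336 against 451, 402 and 419.8 (0.24 ± 0.11, adjusted p = 0.152). In both genes the 3 foggy arrays were above the 3 wild-type arrays, but neither passed the test. The 5 eIF2B subunit genes were all slightly above 0, between 0.02 and 0.25, with eif2b3 at 0.25 ± 0.11 (adjusted p = 0.133). The single measurable probe set of eif2ak3, which encodes the endoplasmic reticulum stress kinase PERK, was at -0.19 ± 0.11 (adjusted p = 0.272).

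The eIF3 complex, the large scaffold on the small ribosomal subunit, had 2 of its 14 genes called. They were the 2 zebrafish copies of subunit h, of which eif3hb was near background. The copy eif3ha measured 1328, 1379 and 1072 units in wild type 4, 5 and 6 and 1791, 2039 and 1482 in the arrays labelled foggy, so that every foggy array was above every wild-type array, and it rose by 0.46 ± 0.14 on the log2 scale (limma adjusted p = 0.04996). The copy eif3hb measured 29.1, 20.3 and 26.4 against 13.7, 10.5 and 14.2 and fell by 0.47 ± 0.13 (adjusted p = 0.0362). Its foggy arrays also did not overlap the wild type, but at 10.5 to 14.2 units they lay close to the highest tag controls of those arrays (11.004 to 26.9), so the size of the fall is poorly set. The eif3hb probe set passed the filter on low values only through its wild-type arrays, so its call is not read as support for a fall. The call of eif3ha was lost when any of 5 of the 6 arrays was left out in turn, and that of eif3hb in 3 of the 4 such fits in which it passed the filter. The other 12 subunit genes ranged from -0.29 for eif3s10 to 0.38 for eif3f and eif3g, and eif3f missed the threshold narrowly (0.38 ± 0.12, adjusted p = 0.0501).

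In the cap-binding machinery, 1 helicase probe set fell and 2 repressor genes rose. The helicase gene eif4a1a measured 1708, 1818 and 1509.8 units in wild type and 1277, 1277 and 1085 in arrays labelled foggy with the first of its 2 probe sets, a log2 difference of -0.47 ± 0.12 (limma adjusted p = 0.0286). Its second probe set measured 975, 1077 and 881 against 814, 834 and 819 (-0.27 ± 0.11, adjusted p = 0.122) and was not called, although its groups did not overlap either. The call of the first probe set was lost in 5 of the 6 fits without 1 array. The paralog eif4a1b was at -0.28 ± 0.12 (adjusted p = 0.119), and eif4a3, the helicase of the exon junction complex, at 0.21 ± 0.11 (adjusted p = 0.204). The cofactors eif4bb and eif4h were at -0.18 ± 0.15 (adjusted p = 0.408) and -0.06 ± 0.15 (adjusted p = 0.797). Of the 6 tested cap-binding probe sets, eif4ea had the smallest p (0.40 ± 0.13, adjusted p = 0.0516). The 7 eIF4G probe sets lay between -0.23 and 0.18, none of them called, the smallest p belonging to eif4g3a (-0.23 ± 0.15, adjusted p = 0.297).

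The repressor eif4ebp3l, a member of the 4E-BP family, measured 754, 838 and 752 units in wild type 4, 5 and 6 and 1033, 1125 and 1091 in the arrays labelled foggy, and rose by 0.44 ± 0.11 (limma adjusted p = 0.0219). The related eif4ebp1 measured 1018, 964 and 959.9 against 1316, 1264 and 1302 and rose by 0.36 ± 0.10 (adjusted p = 0.0394). For both genes the 3 foggy arrays were above the 3 wild-type arrays. The third family member, eif4ebp2, measured 1812, 1557 and 1299 against 1412, 1446 and 1403 (-0.12 ± 0.13, adjusted p = 0.546). The call of eif4ebp1 was lost whichever of the 6 arrays was left out, and that of eif4ebp3l in 2 of 6. Of the remaining initiation factors, eif5, eif5a and eif6 were not called, with eif6 the highest, at 555, 584 and 424 against 622, 712 and 869.6 units (0.45 ± 0.16, adjusted p = 0.0775), a gene whose foggy values spread widely. Those of eif5 and eif5a were 0.25 ± 0.12 (adjusted p = 0.172) and -0.21 ± 0.15 (adjusted p = 0.348).

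The steepest falls of the factor genes were read in dim eEF2 genes, not in the bright elongation factors. The copy eef2l2, an eEF2-like gene, measured 88.4, 59.8 and 184 units in wild type 4, 5 and 6 and 13.3, 15.7 and 48.3 in foggy 4, 5 and 6 with the first of its probe sets, a log2 difference of -1.55 ± 0.37 (limma adjusted p = 0.0202). The second measured 48.5, 47.7 and 179.9 against 14.5, 14.3 and 30.8 (-1.38 ± 0.39, adjusted p = 0.0375). In both, array 6 was the highest of its genotype, and no foggy array reached the lowest wild-type array. With either probe set, foggy 4 and foggy 5 lay below the highest tag controls of their arrays (15.7 and 26.9 units). The size of the eef2l2 fall is therefore poorly set. The third probe set, whose probes also match other transcripts, averaged 26.3 units in wild type and 2.33 in arrays labelled foggy. It was too dim to test, and its foggy values lie within the tag controls, so no size is given. The gene eef2a.1 measured 72.4, 44.6 and 67.5 against 30.4, 31.9 and 27.3 and fell by 0.67 ± 0.15 (adjusted p = 0.0151). Its foggy arrays lay above their own highest tag controls (15.7, 26.9 and 11.004 units), foggy 5 only narrowly. All of them lay near the highest of the group, 26.9 units. The bright eEF2 gene eef2b, in contrast, measured 8050.5, 8058 and 5614 against 7255, 7108 and 5471 and was not called (-0.11 ± 0.16, adjusted p = 0.648).

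All 3 eEF1B subunit genes were below 0. The gamma subunit gene eef1g measured 6437, 6428 and 5944 units in wild type and 4347, 4919 and 4613 in arrays labelled foggy, and fell by 0.40 ± 0.10 (limma adjusted p = 0.0289). The exchange subunit genes eef1b2 and eef1db missed the threshold, at -0.34 ± 0.11 (adjusted p = 0.0540) and -0.35 ± 0.12 (adjusted p = 0.0617), with no overlap between groups in either. For eef1b2 the values were 6343, 6297 and 5672 against 4359.9, 4427 and 4777. The call of eef1g was lost in 5 of the 6 fits without 1 array. The main eEF1A gene of the array, eef1a1l1, measured 11428, 11930.1 and 9904 against 10752, 11337 and 10974 (-0.07 ± 0.10, adjusted p = 0.666). The kinase gene eef2k was at -0.52 ± 0.25 (adjusted p = 0.162) and eef1akmt2, a methyltransferase of eEF1A, at 0.21 ± 0.12 (adjusted p = 0.240).

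**Figure D2:**
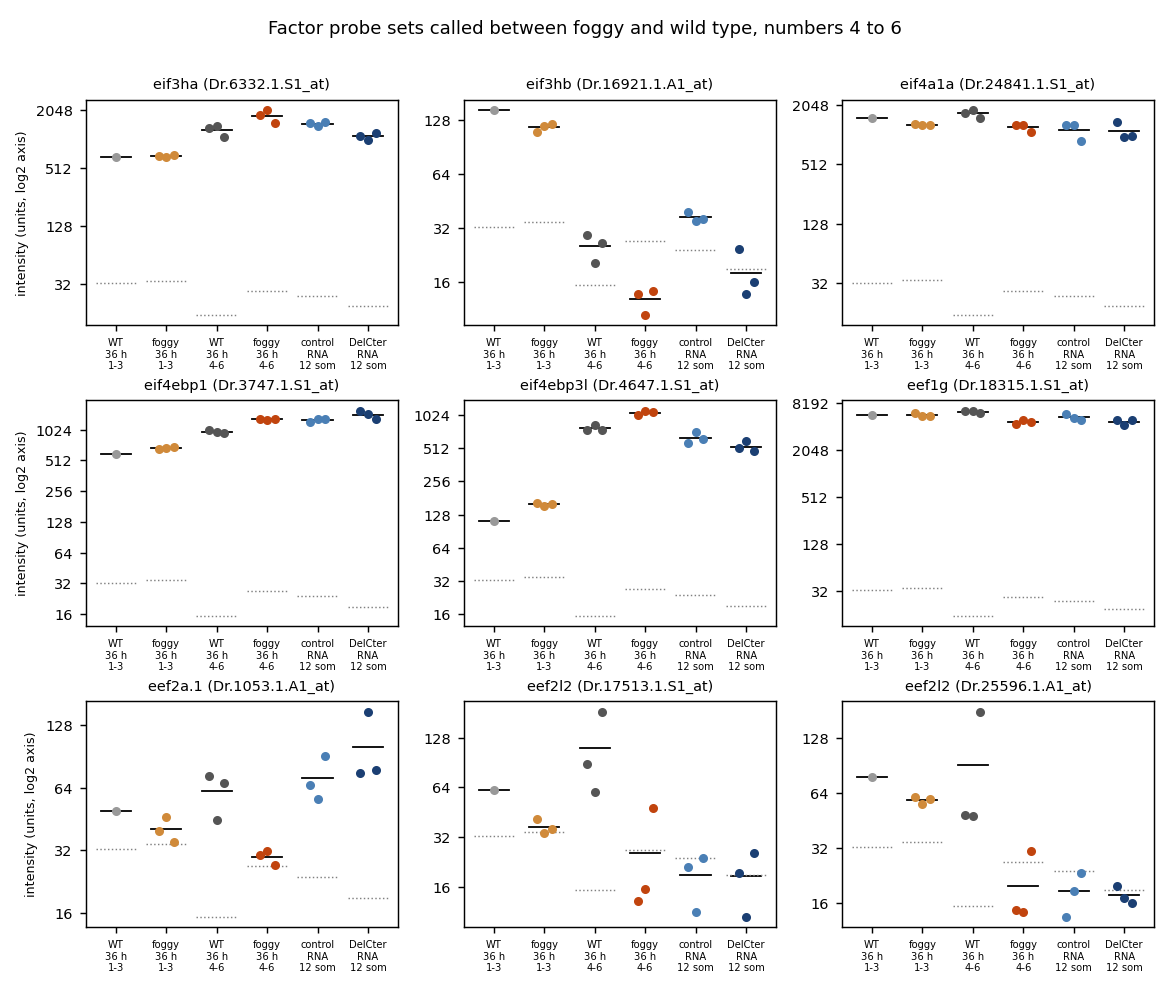
Intensity on a log2 axis of the 9 factor probe sets called between arrays labelled foggy and wild type in numbers 4 to 6, for all 16 arrays. Points are arrays, black bars are group means, and dotted lines mark the highest tag control among the arrays of a group. In the 4-6 columns the foggy and wild-type points do not overlap in any panel, and most foggy points of eif3hb, eef2a.1 and eef2l2 lie near or below the dotted line.

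The count of 9 depended on single arrays and on the fit. It was 2 without wild type 4, 5 without wild type 5, 7 without wild type 6, 2 without foggy 4, 1 without foggy 5 and 5 without foggy 6. It was 15 with a pseudocount of 64 or an intensity trend with a robust prior, 16 in 1 fit over the 10 arrays at 36 h with 4 groups and 14 in 1 fit with the 12-somite arrays, and no factor was called when genotype alone was fitted over all 10 arrays at 36 h. The shares over all probe sets in these fits are not given, so the shifts are not read as particular to the factors. Other tissue markers moved in the same arrays. Of 7 skeletal muscle markers all 7 fell, with summed levels of 21219 to 33925 units in wild type 4 to 6 and 4923 to 7287 in foggy 4 to 6, and of 11 neuronal markers 10 fell, from 2374 to 3135 down to 1167 to 1644. All 5 red blood cell markers and all 3 heart muscle markers fell too, and 4 of 7 neural progenitor markers. The markers snap25b, her4.2, cmlc1 and slc4a1a averaged less than the highest tag control (26.9 units) in foggy 4 to 6, while in wild type 4 to 6 every marker of these lists averaged more than its highest tag control. Of them, snap25b and slc4a1a averaged 14.1 and 10.5 units in foggy 4 to 6. They passed the filter on low values only through wild type 4 to 6 and had to be lower. Other lists did not fall. Of 7 tested yolk and liver markers 1 rose, as did 1 of 3 germ cell markers and 1 of 2 adrenal and chromaffin cell markers. None of 4 epidermis markers was called. The part of all these tissues in the factor differences was not tested.

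The lists of genes that act beside the factors differed in their counts. Over all probe sets tested in numbers 4 to 6, 19.5% were called, 9.12% higher and 10.4% lower, and the other translation genes were near that share. Of 27 other translation genes tested, 3 rose and 3 fell, with the kinase mknk2b, which phosphorylates eIF4E, up by 0.76 ± 0.11 (limma adjusted p = 0.00243), the poly(A)-binding protein pabpc4 down by 0.81 ± 0.16 (adjusted p = 0.0104) and the kinase mknk1, whose mean in arrays labelled foggy lay below the highest tag control there, down by 0.61 ± 0.13 (adjusted p = 0.0110). Of 18 aminoacyl tRNA synthetase genes, which charge tRNAs, 1 fell, aars1 by 0.65 ± 0.12 (adjusted p = 0.00680). Of 72 cytosolic ribosomal protein genes 1 rose, rps27l (1.07 ± 0.19, adjusted p = 0.00645), and the median was -0.01. Of 14 transcripts induced in the integrated stress response, 3 rose and 5 fell. The response's transcription factors atf4a and atf4b fell by 0.80 ± 0.10 (adjusted p = 0.00119) and 0.86 ± 0.15 (adjusted p = 0.00561), and the factor cebpb rose by 0.64 ± 0.11 (adjusted p = 0.00527). Of the 14 tested factor genes whose human counterparts start with a terminal oligopyrimidine tract, the mark of mTOR-regulated transcripts, 1 rose and 4 fell. Those 5 are genes already described, eif3ha upward and eif3hb, eef1g, eef2a.1 and eef2l2 downward. The call of eif3hb is not read as support for a fall, as stated above. In arrays labelled foggy, eef2a.1 and eef2l2 averaged 29.9 and 19.9 units, near the highest tag control of the group (26.9 units). No direction of this list is therefore read from the count.

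At 12 somites, embryos given Foggy(DelCter) RNA differed from those given control RNA in 4 factor probe sets, all lower. Of the 74 probe sets tested this is 5.41%, against 11.3% called over all 10851 probe sets, 3.72% higher and 7.55% lower. The median difference was -0.01 over the factors and -0.02 over all probe sets tested. The subunit h gene eif3hb measured 39.4, 34.8 and 35.8 units in control embryos 1, 2 and 3 and 24.3, 13.7 and 15.95 in injected embryos 1, 2 and 3, and fell by 0.64 ± 0.14 (limma adjusted p = 0.0135). Its other copy eif3ha measured 1478, 1384 and 1509 against 1095, 984 and 1180.2 and fell by 0.42 ± 0.12 (adjusted p = 0.0470). For each copy all 3 injected samples were below all 3 controls, with the injected eif3hb values at or near background. The PERK gene eif2ak3 measured 71.4, 82.7 and 72.7 against 55.5, 43.9 and 41.8 (-0.54 ± 0.13, adjusted p = 0.0211), and the eEF1B subunit gene eef1db 1099, 1234 and 1318 against 849.6, 807 and 974 (-0.47 ± 0.13, adjusted p = 0.0396). Their groups did not overlap either. The call of eif3ha was lost whichever of the 6 arrays was left out, those of eif2ak3 and eef1db in 4 of 6 and that of eif3hb in 1 of 6.

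The other families had no call at 12 somites. The cap-binding eif4e1b, the 1 factor that passed the filter here but not at 36 h, measured 10.9, 16.6 and 9.23 against 14.3, 25.3 and 29.4 (0.45 ± 0.17, adjusted p = 0.104), all near the tag controls. The smallest p of the early initiation families belonged to eif1axb (0.31 ± 0.12, adjusted p = 0.134), eif2s1b (-0.30 ± 0.14, adjusted p = 0.214) and eif2b3 (-0.19 ± 0.14, adjusted p = 0.405). In the eIF4 families it belonged to eif4a1b (0.22 ± 0.13, adjusted p = 0.290), eif4h (-0.29 ± 0.12, adjusted p = 0.150), eif4g3a (-0.33 ± 0.13, adjusted p = 0.130) and eif4ebp3l (-0.25 ± 0.13, adjusted p = 0.261). The genes eif5, eif5a and eif6 were at 0.12 ± 0.13, -0.30 ± 0.15 and 0.04 ± 0.12, and eef2a.1 was at 0.38 ± 0.22 (adjusted p = 0.299). The elongation factors eef1a1l1, eef1g and eef2b lay between -0.19 and -0.06. None of 72 ribosomal protein genes was called, 1 of 18 tRNA synthetase genes fell, 2 of 26 other translation genes rose and 1 fell, and 3 of 14 stress response transcripts rose, led by the amino acid transporter subunit slc3a2b (1.04 ± 0.13, adjusted p = 0.000742). Over all probe sets tested 11.3% were called in this comparison. The count of 4 was 2 without control 2, 1 without control 3, 0 without injected sample 2 and 2 without injected sample 3. It was also 2 with no filter, with a filter at the 60th percentile or with a pseudocount of 1, and 7 with an intensity trend and robust prior. For these fits too the shares over all probe sets are not given, and the shifts are not read as particular to the factors. Of 6 yolk and liver markers 4 fell here, from summed levels of 22753 to 26075 units in controls to 14241 to 16643. Among other tested markers, 2 of 4 red blood cell, 1 of 2 skeletal muscle, 1 of 4 neuronal and the 1 adrenal and chromaffin cell marker also fell. Of 6 germ cell markers 1 rose, and none of 7 neural progenitor or 4 epidermis markers was called. The part of all these tissues in the factor values at 12 somites was not tested.

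Foggy at 36 h and Foggy(DelCter) at 12 somites were then set against each other in 1 fit over the 12 arrays, which asks whether the effects differ. Of 73 factor probe sets 5 were called, 6.85%, against 10.3% over all probe sets tested. For eif3ha the effect was 0.44 at 36 h and -0.47 at 12 somites in this fit, a difference of 0.91 ± 0.18 (limma adjusted p = 0.00472). For eif4ebp3l it was 0.44 and -0.30, a difference of 0.74 ± 0.17 (adjusted p = 0.0127). Both kept their call under all 18 alternative settings. For the other 3 the effect was more negative at 36 h than at 12 somites, namely eef2a.1 (-1.11 ± 0.28, adjusted p = 0.0212), eef2l2 with its first probe set (-1.61 ± 0.47, adjusted p = 0.0388) and eef1b2 (-0.48 ± 0.14, adjusted p = 0.0446). The second eef2l2 probe set was not called (-1.41 ± 0.47, adjusted p = 0.0698). At 12 somites the first averaged 18.8 units in controls and 18.6 in injected embryos, near the tag controls. A fall of eef2l2 could not be read there, so its difference does not show that the effects differ. The paralog eif3hb, called lower in both, was not called by this test (0.12 ± 0.19, adjusted p = 0.737). The count was 2 without control 2 and 3 without wild type 4, foggy 4, foggy 5, control 1, injected sample 1 or injected sample 3. Stage, tissue and the kind of manipulation differ together between the 2 comparisons and cannot be told apart.

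In numbers 1 to 3, none of the 73 tested factor probe sets was called between the 3 arrays labelled foggy and the single wild-type array, against 0.728% over all probe sets tested, and 4 had an unadjusted p under 0.05. The lone wild-type array is assumed to vary like the others. The smallest p belonged to eif4ebp3l, at 112 units in wild type 1 and 164, 154 and 161 in the arrays labelled foggy (0.48 ± 0.13, limma adjusted p = 0.146). The difference between the foggy effects of the 2 sets was not called for any factor either, against 3.29% over all probe sets tested, with 5 factors at an unadjusted p under 0.05. The smallest p there belonged to eif3s10, an eIF3 subunit gene (-0.57 ± 0.15, adjusted p = 0.0646). With a filter at the 60th percentile, a pseudocount of 64 or an intensity trend with a robust prior, 1 factor was called.

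The widest differences among the factors at 36 h were between the 2 sets of arrays labelled foggy. Of 73 probe sets tested 47 were called between numbers 1 to 3 and 4 to 6, 19 higher and 28 lower in numbers 1 to 3, which is 64.4%, against 70.6% over all probe sets tested, 33.6% higher and 36.9% lower. The factors are therefore not set apart by their count. The eEF1A copy eef1a1a was at 256, 256 and 224 units in foggy 1, 2 and 3 and 9.02, 4.40 and 7.84 in foggy 4, 5 and 6. Wild type 1 measured 223, beside 9.94, 12.4 and 3.68 in wild type 4, 5 and 6. The foggy 4 to 6 values lie within the tag controls, so the probe set passed the filter through numbers 1 to 3 alone and had to differ. It is among the 19 counted as higher, and no test is given for it. Its difference is at least 14.7-fold, a bound set against the highest tag control of each of the foggy 4, 5 and 6 arrays (15.7, 26.9 and 11.004 units), averaged on the log2 scale. The main eEF1A gene, eef1a1l1, was at 0.13 ± 0.08 (adjusted p = 0.185).

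The repressor eif4ebp3l moved the other way, at 164, 154 and 161 units in foggy 1, 2 and 3 against 1033, 1125 and 1091 in foggy 4, 5 and 6 (-2.63 ± 0.09, limma adjusted p = 4.97e-10). The related eif4ebp1 and the eIF4E transporter gene eif4enif1 were also lower in numbers 1 to 3, by 0.72 ± 0.08 (adjusted p = 1.15e-05) and 1.00 ± 0.16 (adjusted p = 0.000148). The third 4E-BP gene, eif4ebp2, was higher, at 1626, 1963 and 1849.5 against 1412, 1446 and 1403 (0.60 ± 0.12, adjusted p = 0.000903). The 2 copies of eIF3 subunit h moved in opposite directions. The copy eif3ha measured 684, 664 and 689 against 1791, 2039 and 1482 (-1.17 ± 0.12, adjusted p = 4.78e-06), and eif3hb 109, 119 and 122 against 13.7, 10.5 and 14.2. Of the latter 3 values 2 lie below the highest tag control of their array, and the probe set passed the filter through numbers 1 to 3. It is counted as higher, but no test is given for it. The size is poorly set as well, with a log2 difference of 1.096 to 2.69 over the alternative settings. Subunit j, with 2 copies as well, was lower in numbers 1 to 3 for both, eif3ja by 0.67 ± 0.09 (adjusted p = 5.82e-05) and eif3jb by 1.06 ± 0.17 (adjusted p = 0.000171).

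Several other initiation families were mostly lower in numbers 1 to 3. In eIF1A 4 of 5 probe sets were lower, with eif1axa at 172, 187 and 162 units against 305, 274 and 343 (-0.82 ± 0.10, limma adjusted p = 2.16e-05). Of the 5 probe sets grouped with eIF2 by symbol 3 were lower and none higher, but eif2a and eif2d do not encode eIF2 subunits. The lower ones were eif2a, eif2s2 and eif2d, a tRNA-delivering factor that works without GTP, at -0.62 ± 0.10 (adjusted p = 0.000135). Of the eIF2 subunit genes only eif2s2 was called, and eif2s1a and eif2s1b were not. In eIF2B eif2b2 was higher and eif2b3 lower (-0.66 ± 0.09, adjusted p = 3.94e-05). All 3 eIF5 and eIF5B probe sets were lower, led by eif5 at -0.79 ± 0.11 (adjusted p = 4.40e-05). The gene eif6 measured 331, 256 and 309 against 622, 712 and 869.6 (-1.17 ± 0.15, adjusted p = 2.58e-05), and the helicase cofactor eif4h 251, 246 and 251 against 609.9, 577 and 462 (-1.05 ± 0.12, adjusted p = 1.14e-05). In the genes given here with their values, no array of numbers 1 to 3 reached the level of numbers 4 to 6. The gene eif5a2 was lower by 0.43 ± 0.11 with 1 of its 2 probe sets (adjusted p = 0.00447). The PERK gene eif2ak3 was called lower (-0.30 ± 0.09, adjusted p = 0.0139), but its groups overlapped. That call was lost without foggy 1, without foggy 4 and with the values as scaled by the submitters, where the difference was -0.0147 (adjusted p = 0.903).

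Among the helicase and elongation families, most eIF4A probe sets and all eEF1B genes were higher in numbers 1 to 3. Of 5 eIF4A probe sets 4 were higher and 1, eif4a3, was lower. The largest of these differences was read by the second eif4a1a probe set, at 1737, 1733 and 1739.8 units against 814, 834 and 819 (1.28 ± 0.09, limma adjusted p = 1.75e-07), and eif4a1b was at 0.78 ± 0.10 (adjusted p = 1.84e-05). The first eif4a1a probe set was called higher (0.34 ± 0.10, adjusted p = 0.0111), although its groups overlapped. It measured 1308, 1277 and 1270 units against 1277, 1277 and 1085. All 3 eEF1B genes were higher, with eef1db at 1025, 1109 and 1113 against 819, 753 and 812 (0.66 ± 0.10, adjusted p = 9.69e-05). The cap-binding eif4e3 was higher with both probe sets, 0.94 ± 0.13 (adjusted p = 5.73e-05) and 0.51 ± 0.11 (adjusted p = 0.00142). For eif4g2a the 2 probe sets disagreed, one at 489.96, 566 and 516 against 175, 176 and 196 (1.47 ± 0.13, adjusted p = 1.33e-06) and the other at -0.06 ± 0.10 (adjusted p = 0.610), so the direction of that gene is uncertain. The gene eef1e1 was at 0.47 ± 0.09 (adjusted p = 0.000521). The eEF1A methyltransferase gene eef1akmt2 was called lower (-0.49 ± 0.11, adjusted p = 0.00234), although its groups overlapped. No eEF2 probe set was called, the smallest p belonging to eef2l2 (0.72 ± 0.34, adjusted p = 0.0780).

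In the same contrast all 11 neuronal markers were higher in numbers 1 to 3, with a median of 3.39 and summed levels of 13851 to 14123 units against 1167 to 1644. All 7 tested yolk and liver markers were lower, with a median of -7.12. In foggy 1 to 3, however, 6 of the 8 such markers on the array averaged no more than the highest tag control. Those of them that were tested passed the filter through numbers 4 to 6 and had to be lower, so the median sets no firm size. Of 72 ribosomal protein genes 3 were higher and 12 lower, of 18 tRNA synthetase genes 6 and 7, of 27 other translation genes 9 and 13, and of 14 stress response transcripts 8 and 4. Over all probe sets tested 70.6% were called in this contrast. The part of these tissues in the factor differences was not tested. This contrast shares the foggy 4, 5 and 6 arrays with the genotype comparison above.

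**Figure D3:**
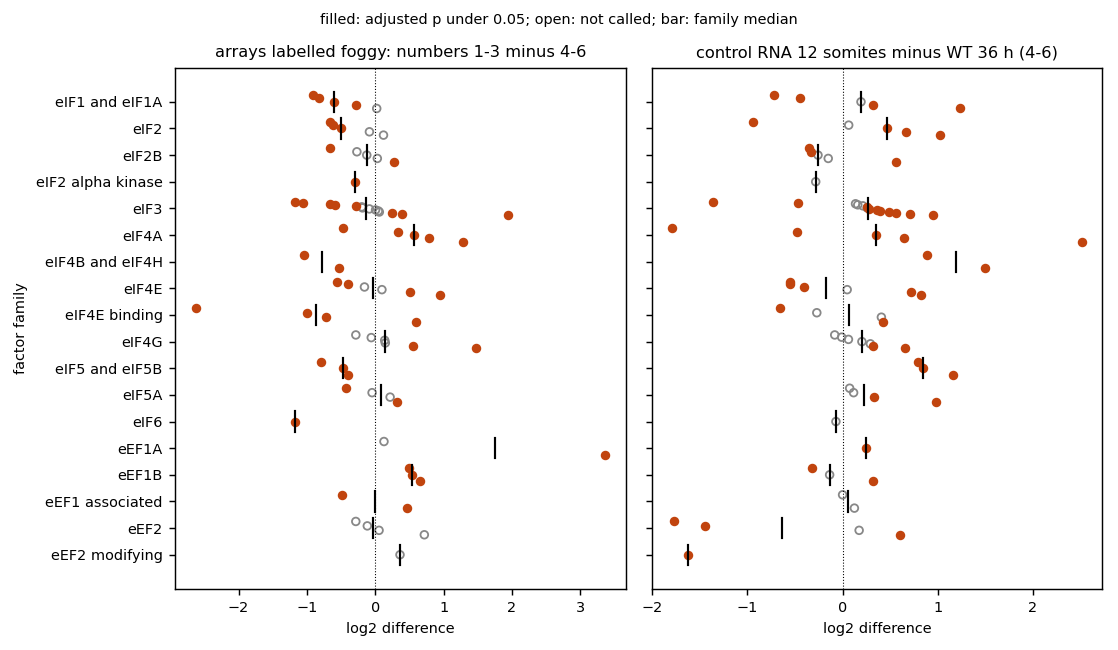
Log2 differences of the factor probe sets by family between the sets of arrays labelled foggy (left, numbers 1 to 3 minus 4 to 6) and between control embryos at 12 somites and wild type 4 to 6 at 36 h (right). Filled points had a limma adjusted p under 0.05, open points did not, and bars are family medians. On the left the extremes are eef1a1a and eif4ebp3l, and on the right the extremes are a probe set of eif4a1a and eif4a1b.

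Between stages, control embryos at 12 somites and wild type 4 to 6 at 36 h differed in 49 of 73 tested factor probe sets, 32 higher and 17 lower at 12 somites. This is 67.1%, against 58.4% over all probe sets tested, 33.2% higher and 25.2% lower, and the median was 0.20 over the factors and 0.10 over all probe sets. The helicase gene eif4a1b measured 314, 324 and 392 units in control embryos 1, 2 and 3 and 1163, 1132 and 1335 in wild type 4, 5 and 6 (-1.79 ± 0.12, limma adjusted p = 8.20e-09). The second probe set of eif4a1a measured 5452, 5429 and 5707 against 975, 1077 and 881 (2.51 ± 0.11, adjusted p = 2.13e-10), the largest difference of any factor here. The first probe set of eif4a1a, however, measured 1263, 1289 and 875 against 1708, 1818 and 1509.8 and went the other way (-0.48 ± 0.16, adjusted p = 0.0215), so the direction of that gene is uncertain. Stage, tissue and injection of a control RNA differ together here and cannot be told apart, and the contrast shares wild type 4, 5 and 6 with the genotype comparison.

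Both copies of eIF2 alpha, the subunit that stress kinases phosphorylate, were called in opposite directions. The copy eif2s1a measured 775, 787 and 636 units at 12 somites against 366, 355 and 336 at 36 h (1.02 ± 0.14, limma adjusted p = 1.54e-05), and eif2s1b 518, 395 and 393 against 743, 818 and 914 (-0.94 ± 0.15, adjusted p = 6.80e-05). Neither copy overlapped between stages. In eIF2B eif2b5 was higher (0.56 ± 0.14, adjusted p = 0.00309) and eif2b2 and eif2b4 were lower. Of the 14 eIF3 genes 8 were higher at 12 somites, led by eif3d at 3432, 3429.7 and 3298 against 2041, 2045 and 1754 (0.95 ± 0.10, adjusted p = 2.38e-06), and 2 were lower, eif3jb at 133, 82.6 and 124 against 216, 328 and 365 (-1.36 ± 0.20, adjusted p = 3.39e-05) and eif3eb. Among the 8, the groups of eif3ea and eif3f overlapped (adjusted p = 0.0402 and 0.0466), and eif3hb was dim, averaging 36.7 units against 25.3. The groups of eif3eb overlapped too. In eIF1A the probe sets of eif1axb disagreed, 2 being lower (-0.72 ± 0.14, adjusted p = 0.000393, and -0.45 ± 0.12, adjusted p = 0.00479) and the third higher (0.32 ± 0.10, adjusted p = 0.0151), so the direction of that gene is uncertain. Of the 2 eif1axa probe sets 1 was called higher (1.23 ± 0.20, adjusted p = 7.71e-05) and the other was at 0.19 ± 0.13 (adjusted p = 0.211).

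The helicase cofactors and the joining factors were higher at 12 somites with every probe set. The cofactor eif4bb measured 2709, 2521 and 2743 units against 1112, 1075 and 829.9 (1.49 ± 0.13, limma adjusted p = 2.80e-07) and eif4h 997, 1058 and 1061 against 631, 580.4 and 483 (0.89 ± 0.13, adjusted p = 3.63e-05). The subunit-joining GTPase gene eif5b measured 642, 606 and 683 against 294, 295 and 248 (1.16 ± 0.12, adjusted p = 1.28e-06), and eif5 was at 0.85 ± 0.12 (adjusted p = 2.71e-05). Higher as well were eif4e2rs1 (0.83 ± 0.12, adjusted p = 2.71e-05), eif4ebp1 (0.42 ± 0.11, adjusted p = 0.00346) and eif4g3b (0.66 ± 0.16, adjusted p = 0.00228). Lower were the repressor eif4ebp2 (-0.65 ± 0.17, adjusted p = 0.00412) and 3 of the 6 tested cap-binding probe sets, namely both of eif4e3 (-0.55 ± 0.12, adjusted p = 0.00135, and -0.55 ± 0.16, adjusted p = 0.00764) and 1 of the 2 of eif4e1c (-0.40 ± 0.13, adjusted p = 0.0135). For eif5a 1 probe set was higher (0.99 ± 0.16, adjusted p = 8.79e-05) and the other was at 0.12 ± 0.12 (adjusted p = 0.411).

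Among elongation factors, eef2l2 and the kinase eef2k were lower at 12 somites. With its first probe set eef2l2 measured 21.1, 11.4 and 23.98 units against 88.4, 59.8 and 184 (-1.77 ± 0.33, limma adjusted p = 0.000316) and with its second 13.5, 18.6 and 23.5 against 48.5, 47.7 and 179.9 (-1.45 ± 0.33, adjusted p = 0.00167), the 12-somite values lying within or near the tag controls. The gene eef2k measured 57.1, 64.8 and 68.7 against 169.6, 187 and 330.3 (-1.63 ± 0.21, adjusted p = 1.10e-05), with wild type 6 well above the other 2 wild-type arrays. The bright genes moved less, with eef2b at 0.60 ± 0.13 (adjusted p = 0.00146), eef1a1l1 at 0.25 ± 0.10 (adjusted p = 0.0370), eef1b2 at -0.32 ± 0.10 (adjusted p = 0.0129) and eef1db at 0.32 ± 0.12 (adjusted p = 0.0329). The groups of eef1a1l1 overlapped, and its call was lost whichever of the 6 arrays was left out. In the same contrast all 7 skeletal muscle markers were lower at 12 somites, summing to 733 to 1121 units, and all 10 tested neuronal markers were lower too. In the control embryos 5 of the 7 muscle markers and 7 of the 11 neuronal markers on the array averaged no more than the highest tag control. Those of them that were tested passed the filter through the 36 h arrays and had to be lower. Of 72 ribosomal protein genes 3 were higher and 8 lower, of 18 tRNA synthetase genes 6 and 1, of 26 other translation genes 12 and 4, and of 14 stress response transcripts 2 and 10. Over all probe sets tested 58.4% were called between the stages. The part of those tissues in the factor values was not tested.

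**Figure D4:**
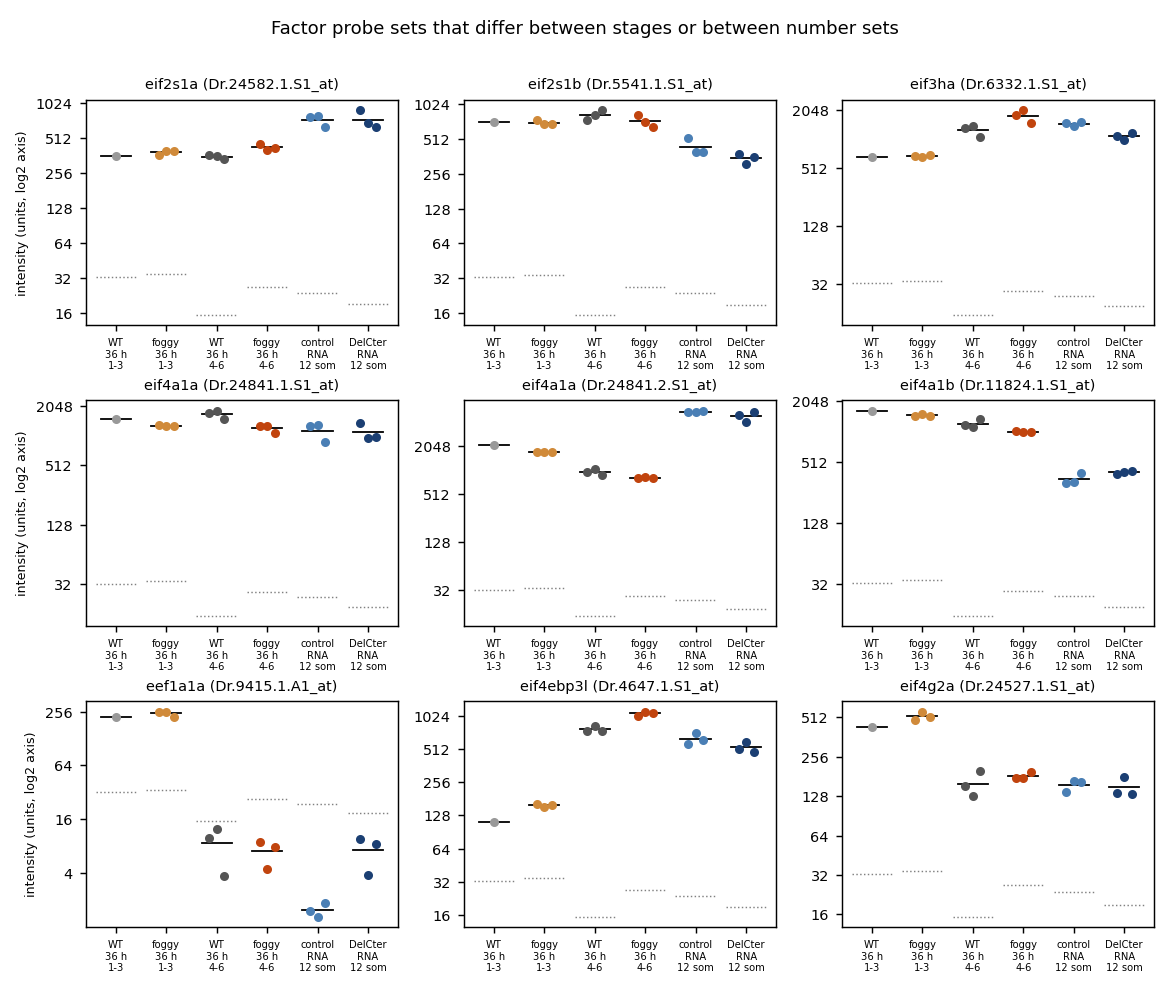
Intensity on a log2 axis of 9 factor probe sets on all 16 arrays, for the 2 copies of eIF2 alpha, eif3ha, the eIF4A copies with both eif4a1a probe sets, and 3 probe sets that differ between the 36 h sets. Points are arrays, black bars are group means, and dotted lines mark the highest tag control among the arrays of a group. The eif4a1a probe sets diverge at 12 somites, eif2s1a and eif2s1b cross between the stages, and eef1a1a stands above the dotted line in numbers 1 to 3 only.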

How the data were processed

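The deposited values are intensity per probe set on a linear scale, and per the file's values the authors had scaled every array to a 2% trimmed mean of 150.0 units. Which software did this, the sources used here do not state. The tests used log2(intensity + 16), which understates the change of dim genes. Arrays at 36 h were quantile normalized first, while 12-somite arrays were used as deposited within that stage. Printed levels are the deposited values. Probe sets with a mean below the 30th percentile of a comparison's arrays were left out. Each comparison was fitted over all remaining probe sets in limma 3.58.1 (R 4.3.3, lmFit then eBayes, 2-sided, Benjamini-Hochberg adjustment) and called at an adjusted p under 0.05. The script was tested on simulated data.

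Probe sets of a gene were kept apart, and lists used the brightest probe set of a symbol. The lists were other translation genes, aminoacyl tRNA synthetases, stress response targets, factors with terminal oligopyrimidine tracts in human, ribosomal proteins and tissue markers. The members and lists were chosen with earlier results of these data known. In each family the text names the called probe set with the smallest p, or the smallest p where none was called, then further calls by size, and the brightest probe set. The number of arrays limits the precision.

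Same-numbered arrays share a title number, but no label says why. Deviations from the group means correlated at 0.0594, 0.281 and 0.355 for numbers 4, 5 and 6, and at 0.237, 0.230 and 0.181 at 12 somites. These values do not establish pairing. Same-numbered arrays were taken as pairs only in an alternative fit of foggy against wild type in numbers 4 to 6, and in another of the 12-somite comparison. The other alternatives were another normalization, filter, pseudocount or prior, other arrays in the fit, and each array left out in turn.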

Additional observations from a re-analysis of the deposited data

Results flagged for a closer look

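The effect of the foggy label at 36 h (numbers 4 to 6) was tested against the effect of Foggy(DelCter) RNA at 12 somites. By limma's test of the difference in 1 fit over 12 arrays, 5 of 73 factor probe sets were called, 6.85%. Over all probe sets tested the share was larger, 10.3%. The difference was 0.91 ± 0.18 (SE, adjusted p = 0.00472) for eif3ha and 0.74 ± 0.17 (adjusted p = 0.0127) for eif4ebp3l. On its own, eif3ha was called higher at 36 h and lower at 12 somites, while eif4ebp3l was called higher at 36 h and was at -0.25 ± 0.13 (adjusted p = 0.261) at 12 somites. The difference was -1.11 ± 0.28 (adjusted p = 0.0212) for eef2a.1, -1.61 ± 0.47 (adjusted p = 0.0388) for eef2l2 with its first probe set (its second was at -1.41 ± 0.47, adjusted p = 0.0698), and -0.48 ± 0.14 (adjusted p = 0.0446) for eef1b2. The calls of eef2l2 and eef1b2 were lost in 9 and 11 of the 12 fits without 1 array. At 12 somites the first eef2l2 probe set averaged 18.8 units in controls and 18.6 in injected embryos, near the tag controls. A fall could not be read there, so the eef2l2 difference does not show that the effects differ.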

How the results depend on the processing

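Over the fits without 1 array, the number of factor probe sets called was 1 to 7 in numbers 4 to 6 (9 with all arrays), 0 to 3 at 12 somites (4), 2 to 6 for the difference between the stages (5), 44 to 49 between the sets labelled foggy (47) and 39 to 44 between the stages (49). In numbers 4 to 6 the count became 15 with a pseudocount of 64 or an intensity trend, 16 in the fit over 10 arrays, 14 in the fit over 12 arrays and 0 with genotype alone over the 10 arrays, where eif3hb turned to 0.049 and eif4ebp3l to -0.23. With the replicate block, which takes same-numbered arrays as pairs, it was 14, and all 9 stayed called. At 12 somites the block called 4, the same 4 probe sets. The 12-somite count became 2 without a filter, with a stricter filter or with a pseudocount of 1, and 7 with the trend. The difference between the number sets went from 0 to 1 with the stricter filter, the pseudocount of 64 or the trend, and the difference between the stages from 5 to 3 without a filter or with a pseudocount of 1. With the values as scaled by the submitters, family medians in numbers 4 to 6 became -0.43 for eEF1B and -0.00447 for eEF1A. Between the sets labelled foggy they became -0.30 for eIF3, -0.083 for eIF5A, -0.0147 for the eIF2 alpha kinase, 0.39 for eEF1B, 0.13 for the eEF1 associated genes and 0.37 for eEF2, and between the stages -0.0174 for eIF5A and -0.25 for eEF1B. The cause of these shifts was not tested. Without the shares over all probe sets under each setting, the changes in count are not read as particular to the factors. Dim probe sets near the tag controls set no firm size.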
